A study of Homo sapiens with 8 samples.

Results

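This comparison concerns cell lysates of HEK 293T, a human embryonic kidney line, that made a vesicle-targeted YTHDF1 construct or its control. The 4 lysate libraries of the 8 libraries in the series were taken: construct replicates II and III and control replicates I and II. Construct cells were transfected with GFP-C-YTHDF1 and GBP1-CD9, the pair that the study calls TRACE, and control cells with GFP and GBP1-CD9. Both groups therefore carried the GBP1-CD9 fusion, were transfected with Lipofectamine 3000 in dishes of 10 cm, and grew in medium with 10% exosome-depleted serum and RNase A at 30 µg/mL. YTHDF1 and CD9 lie outside chromosome 1, where all counts of the deposited table lie, so the transfected genes could not be checked. The members are the counted chromosome 1 features with at least 20 counts over the 4 libraries: 944 of 5363 features, of which 3252 had a count in any of the 4.

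YTHDF1 is a cytoplasmic reader of N6-methyladenosine, a common internal mark of messenger RNA, and has been linked to translation of the messages it binds. CD9 is a tetraspanin of the plasma membrane and of extracellular vesicles. GBP1 is a binding protein for GFP, so that a GFP fusion can be held at CD9 in the membrane. HEK 293T cells divide fast and make much of their messenger RNA for ribosomes, translation and protein turnover. Lysates bear on whether the cells that shed the vesicles already differed in RNA between constructs.

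A feature here is a set of genomic intervals counted under a gene identifier. The file's numbering is that of hg19 exons, but the reads behave as if placed on GRCh38: the identifier of RPL11 held 1 count over the 4 libraries, while the intervals at the GRCh38 position of RPL11 held 4742. RPL22 had 0 counts under its identifier and 1233 at its GRCh38 position, and RPS27 275 and 1502. Each interval is therefore called by the GRCh38 gene or genes whose exons its numbers overlap. Of the 944 features, 801 overlapped exons (441 of 1 gene and 360 of several), 107 lay in introns only and 36 met no gene. Where several genes are joined by a slash, the name is uncertain and the one with the longest overlap comes first. The feature's own symbol was among the genes at its position for 115 of the 919 features that have one. Genes whose exons met no counted interval, among them RPL5, YBX1 and the m6A reader YTHDF2, were not measured.

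Counted reads were few, with totals of 42950 and 58664 in construct replicates II and III and 109099 and 163157 in control replicates I and II. These totals cover chromosome 1 features alone, so they do not give the depth of sequencing. The groups did not overlap in total counts. Levels below are CPM, counts as a share of the library's total, after TMM scaling, a scaling that takes most features as unchanged. Rank correlations over the 944 features were 0.872 between the construct replicates and 0.892 between the control replicates, and between groups they ran from 0.844 to 0.887. The median absolute log2 difference was 0.454 and 0.387 between replicates and 0.4 to 0.527 between groups. Both pairs that set a construct library against control II had the lowest correlations, 0.85 and 0.844. All libraries of a pair share the features and their intervals, so these correlations describe likeness and carry no test.

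Counts in all 4 libraries were spread over few loci. The 25 intervals with the highest mean CPM held 33.88% ± 0.944 of the counts in construct cells and 36.44% ± 1.24 in control cells (SD, n = 2). The difference was -2.56 percentage points, and -1.41 without control II. With 2 libraries against 2, an exact permutation test cannot go below p = 0.333, so shares are given as values.

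The most counted interval lay at SNAPIN/ILF2. ILF2 is a double-stranded RNA-binding protein and SNAPIN a partner of the vesicle fusion machinery. This interval held 27387 and 26090 CPM in construct cells II and III and 26500 and 29948 CPM in control cells I and II. The groups overlapped, and its highest library was 1.15 times its lowest. The interval led by GAS5, a small nucleolar RNA host, overlaps other genes too and had 25059 and 24909 CPM in construct and 23927 and 24912 CPM in control cells. Its 4 values lay within 1.05-fold of each other.

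EIF3I, a subunit of the translation initiation factor eIF3, shares an interval with 6 other genes. That interval had 24382 and 18920 CPM in construct and 19010 and 19407 CPM in control cells. Construct II alone stood high, and the groups overlapped. FLAD1, which makes the cofactor FAD, was as even, with 8406 and 8877 CPM in construct and 8538 and 8886 CPM in control cells. MRPS14, of the small mitochondrial ribosomal subunit, had 7615, 7433, 7754 and 8332 CPM in the same order. DNAJC8, a DNAJ-family protein of the spliceosome, had 7660, 8188, 7635 and 7073 CPM. FLAD1 overlapped between groups, MRPS14 lay below control in both construct libraries and DNAJC8 above it. The log2 fold changes were -0.10 ± 0.14 for MRPS14 and 0.11 ± 0.15 for DNAJC8, within 1 SE of 0.

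Intervals at 2 proteasome subunits, both shared with other genes, were among the 25. PSMB4/POGZ, at a subunit of the catalytic core particle, had 14823 and 13915 CPM in construct and 15052 and 15960 CPM in control cells. PSMD4/ZNF687, at the ubiquitin receptor of the regulatory particle, had 16337 and 14784 CPM in construct and 17350 and 20983 CPM in control cells. Both intervals were below control in both construct libraries, PSMB4 by -0.11 ± 0.13 and PSMD4 by -0.30 ± 0.14 on the log2 scale (± SE, edgeR). Neither passed the adjusted threshold.

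Processed pseudogenes, intronless copies of messenger RNA in the genome, made up much of the top of the list. PFN1P1, a copy of the actin-binding protein profilin 1 in an intron of VAMP4, ranked second by CPM. RPL19P3, RPL10P4/RNPEP, RPL29P6 and RPL18AP5, copies of large-subunit ribosomal protein genes, were all in the top 25, as were AKR1B1P1/CNIH3 and VDAC2P3/TENT5C. A read from the parent gene and a read from such a copy may be near-identical, so these counts cannot be assigned to the pseudogene rather than its parent. The same holds for the interval of RYR2, the ryanodine receptor of heart muscle, which also covers nuclear copies of mitochondrial genes (MTCYBP15 and MTND5P18 among them).

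**Figure D1:**
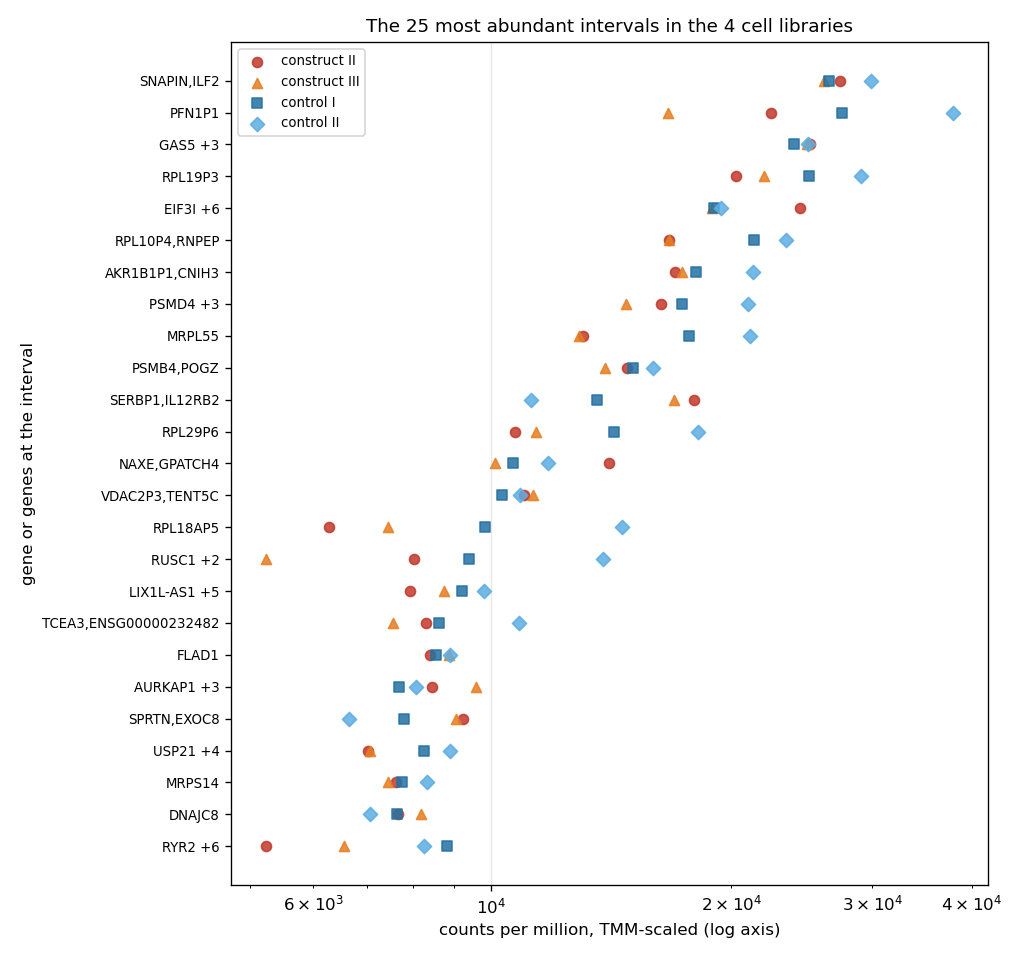
TMM-scaled CPM (log axis) of the 25 most abundant intervals in each of the 4 cell libraries, 1 point per library, with the gene or genes at the interval on the vertical axis. SNAPIN/ILF2 and the GAS5 interval have their 4 points close together, while at PFN1P1 control II (37918) stands highest and construct III (16688) lowest.

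Intervals differ in length, so CPM ranks how many reads fell on a locus and not how much each gene is expressed. Per kilobase of counted interval, PRDX3P2, a copy of the mitochondrial peroxiredoxin gene, came first with 19926 CPM per kb on an interval of 66 bases. LINC02771 (16204 CPM per kb), RPLP0P5 (15544 CPM per kb) and RPL19P3 (11646 CPM per kb) followed in that order. SNAPIN/ILF2, the first by CPM, had 5493 CPM per kb. Ribosomal protein pseudogenes were thus near the top on both scales.

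The share of counts by annotation showed where the groups parted. Processed pseudogenes took 18.99% and 19.65% of the counts on all chromosome 1 features, kept or not, in construct cells II and III. In control cells I and II they took 21.23% and 23.64%. Both construct libraries were lower (19.32% ± 0.468 against 22.44% ± 1.7, SD, n = 2). Protein-coding exons took 69.06% and 68.5% in construct and 67.32% and 65.64% in control cells, so here the construct libraries were higher. Intervals in introns took 3.914% and 3.803% in construct and 3.481% and 3.255% in control cells. Intervals with no gene took 1.262% and 1.227% in construct and 1.144% and 1.023% in control cells. Long noncoding RNA exons overlapped between groups, with 5.809% and 5.961% against 5.943% and 5.758%.

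Across the 944 features, 0 passed an adjusted p of 0.05 by edgeR's quasi-likelihood test (0.0% called, higher or lower in construct cells). The smallest adjusted p by that test was 0.0664. Counts were also simulated with these library sizes and the fitted spread. In them 50 features each were changed 2-, 4-, 8- and 16-fold and 744 were left unchanged. The same fit called 24% of features changed 2-fold and 76% of those changed 4-fold. The adjustment is stricter where fewer features change, so these rates may be too high for the real counts. Having 0 calls therefore does not show that levels were equal. At an unadjusted p under 0.05 stood 109 features (11.5%), 45 higher (4.77%) and 64 lower (6.78%) in construct cells. DESeq2 called 1 feature, MPZL1, with 53 at an unadjusted p under 0.05, and limma-voom called 0 with 110. Fits that left out a library gave other counts of higher and lower calls: 12 and 43 without control I, 0 and 1 without control II, 0 and 13 without construct II, and 5 and 7 without construct III. The groups did not overlap in CPM for 401 features (42.5%), 191 with both construct libraries above (20.2%) and 210 with both below (22.2%). The median log2 fold change was 0.017. No label tells whether the replicates grew as separate cultures, so the tests rest on a spread that may be technical. In lysates of a whole culture, fewer cells that make an RNA and less RNA per cell cannot be told apart.

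**Figure D2:**
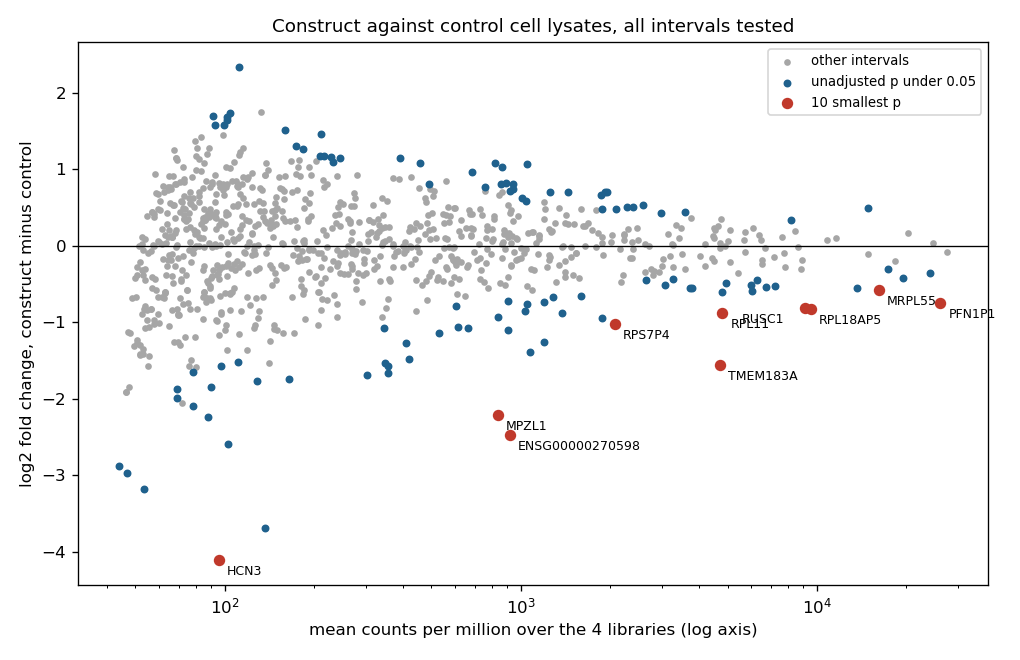
Log2 fold change of construct minus control cells against mean CPM over the 4 libraries (log axis) for the 944 features tested. Blue points have an unadjusted p under 0.05, and red points are the 10 smallest p, none of which passed the adjusted threshold and all of which lie below 0.

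Since no feature passed, the 10 with the smallest p are named as values that did not pass. All 10 had both construct libraries below both control libraries, a pattern that 22.2% of all features shared. Reads at MPZL1, a cell-surface immunoglobulin-family glycoprotein that recruits the phosphatase SHP-2, gave the smallest p. Its exonic interval (chr1:167789644-167790462) had 15 and 16 counts in construct cells II and III and 100 and 278 counts in control cells I and II. These are 339 and 263 CPM in construct and 912 and 1833 CPM in control cells, so the groups were well apart and the control libraries differed from each other. The log2 fold change was -2.21 ± 0.39 (SE; edgeR adjusted p = 0.0664). Mean CPM was 4.563-fold lower in construct cells, and 3.033-fold lower without control II. A neighbouring interval in MPZL1 exons had 14, 3, 34 and 114 counts in the same order, and a log2 fold change of -1.66 ± 0.64. On the CPM scale its construct II (316) lay above control I (310.2), so the groups overlapped there.

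TMEM183A/PPFIA4 followed, at a membrane protein gene and a liprin, a scaffold protein of synapses. It had 98 and 157 counts in construct and 412 and 1561 counts in control cells (log2 fold change -1.55 ± 0.34, edgeR adjusted p = 0.11). Control II stood far above the other 3 libraries. Mean CPM was 2.933-fold lower in construct cells and 1.569-fold lower without that library. The pseudogene listed only as ENSG00000270598 was similar, with 16 and 13 counts in construct and 59 and 389 counts in control cells. Its mean CPM was 5.397-fold lower in construct cells, 1.872-fold lower without control II and 8.922-fold lower without control I. Control II, the library with the most counts, thus set much of the size of both.

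PFN1P1 had 22393 and 16688 CPM in construct and 27540 and 37918 CPM in control cells, a log2 fold change of -0.75 ± 0.17 (edgeR adjusted p = 0.11). RPL18AP5 had 6282 and 7433 CPM in construct and 9843 and 14588 CPM in control cells, a log2 fold change of -0.83 ± 0.18. RPS7P4, a copy of a small-subunit ribosomal protein gene, had 57 and 89 counts in construct and 247 and 504 counts in control cells, and its log2 fold change was -1.02 ± 0.24. These 3 are processed pseudogenes, each with control II highest and control I between it and the construct libraries.

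MRPL55, a protein of the large mitochondrial ribosomal subunit, had the smallest standard error of the 10. Its interval held 578 and 786 counts in construct and 1940 and 3203 counts in control cells. Its 2 construct values, 13061 and 12897 CPM, were nearly equal, and its control values were 17697 and 21115 CPM. The log2 fold change was -0.58 ± 0.13 (edgeR adjusted p = 0.11). RUSC1/FDPS, an interval that covers an adaptor protein and farnesyl diphosphate synthase of isoprenoid synthesis, had 8022 and 5234 CPM in construct and 9387 and 13824 CPM in control cells. Its log2 fold change was -0.81 ± 0.21 (edgeR adjusted p = 0.155).

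RPL11, of the large ribosomal subunit, is also among the 10, and its counts are given with the ribosomal proteins. HCN3/PKLR was sparse. The interval, at a cyclic nucleotide-gated channel and the pyruvate kinase of liver and red cells, had 0 and 1 count in construct and 17 and 32 counts in control cells. From the pooled counts it was 19.73-fold higher in control cells, with a 95% counting interval of 3.378 to 794.8. Another shared interval, PKLR/HCN3, had 2 and 1 counts in construct and 9 and 20 counts in control cells (-1.87 ± 0.83). The interval at PKLR alone had 15 and 24 counts in construct and 49 and 51 counts in control cells. There the groups overlapped (-0.08 ± 0.39). SDF4, a calcium-binding protein of the Golgi, and CRTC2, a coactivator of CREB, were chosen after their values were seen. SDF4 had 1, 1, 11 and 62 counts in the order of the libraries above, a ratio of 14.69 (3.925 to 123.6). Most of its control counts lay in control II. CRTC2 had 1, 2, 18 and 29 counts, a ratio of 6.307 (2.03 to 31.68), but its other interval had 2, 5, 6 and 11 counts and overlapped (0.03 ± 0.72). These intervals cover counting error only, and the fitted values of such features depend on the prior count.

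**Figure D3:**
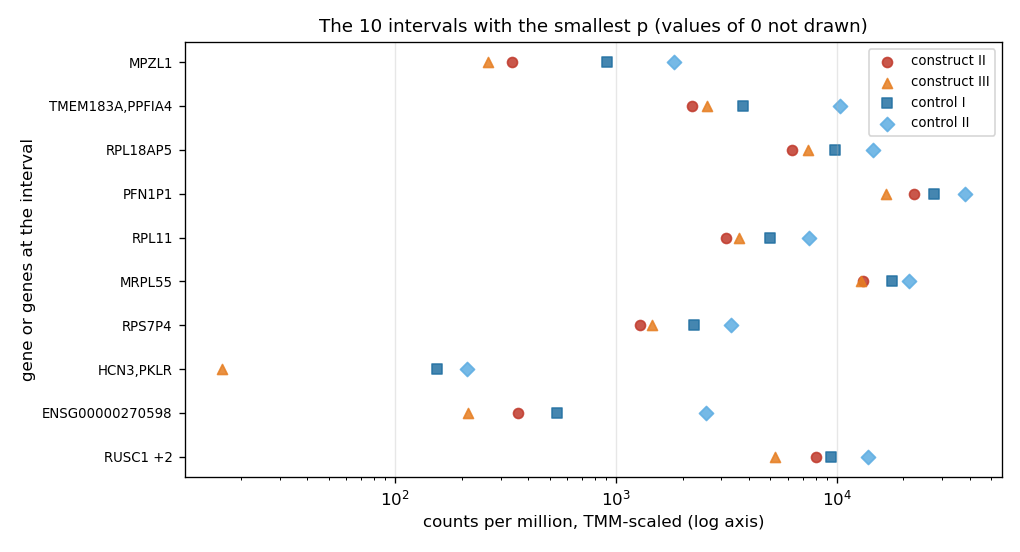
TMM-scaled CPM (log axis) of the 10 intervals with the smallest p, 1 point per cell library; the count of 0 at HCN3/PKLR in construct II is not drawn. In each row the construct points drawn lie left of the control points, and control II is the rightmost.

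The smallest p among features higher in construct cells belonged to SERBP1/IL12RB2. SERBP1 binds messenger RNA and ribosomes. Its interval had 17964 and 16950 CPM in construct and 13592 and 11220 CPM in control cells. Both construct libraries were above both control libraries, with a log2 fold change of 0.49 ± 0.14 (edgeR adjusted p = 0.195). Among the 25 most abundant intervals, SPRTN/EXOC8 was the other with a higher construct mean and an unadjusted p under 0.05. SPRTN, a protease of DNA-protein crosslink repair, had 9242 and 9041 CPM in construct and 7790 and 6651 CPM in control cells (log2 fold change 0.34 ± 0.15).

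Genes of known pathways were then read by lists, by position and only where at least 20 counts were kept. No interval of any list was called (0.0% of all features were), so lists are given by counts and medians beside the 0.017 of all features.

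Ribosomal proteins build the ribosome. Their messages usually start with a C and a run of pyrimidines, the 5′ terminal oligopyrimidine tract that ties their translation to growth signals. RefSeq starts (GRCh38.p14, 15 bases before and 15 from the start) were read because the ribosomal protein intervals lay on the same side, and SERBP1 on the other. The capitals mark a C at the start and the C or T run that follows it, where the run has at least 4 more such bases.
RPL11, second start (chr1:23691791-23691820, plus strand): cggaagctccgctttCTCTTCCTgctctcc
RPL22 (chr1:6199581-6199610, minus strand): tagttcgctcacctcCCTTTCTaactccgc
RPS27 (chr1:153990747-153990776, plus strand): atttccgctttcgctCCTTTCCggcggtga
SERBP1 (chr1:67430388-67430417, minus strand): gagaagacggcccccCTCTCTCggcccggc
MRPL55 (chr1:228109285-228109314, minus strand): gacgcagcgcctgccagtgacgtcgtgggc
MPZL1 (chr1:167721967-167721996, plus strand): ggctgaggcttcggtgcagagctggagagc
RPL11, RPL22, RPS27 and SERBP1 hold the run, while MRPL55, MPZL1 and the other RefSeq start of RPL11 do not. ILF2, whose shared interval had a log2 fold change of -0.08 ± 0.12, holds it too, and EIF3I does not. The run was searched on the transcript strand at the start only, and 4.07% of the 35116 starts in the table hold it. Among 328 intervals of 1 gene with a start in the table, the 21 whose gene holds it had a median log2 fold change of 0.119. The 307 others had 0.0192. The shared intervals of RPL22, RPS27 and SERBP1 are not among the 328. A match is a description of these letters and not a measured site of regulation.

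All 4 kept intervals at ribosomal protein genes lay below control in both construct libraries (22.2% of all features did), with a median log2 fold change of -0.54. RPL11, a large-subunit protein that also binds MDM2, had 139, 220, 547 and 1131 counts in construct II and III and control I and II (-0.88 ± 0.20). A neighbouring RPL11 interval had 241, 341, 799 and 1324 counts (-0.54 ± 0.16). The RPL22 interval, which RNF207 shares, had 120, 145, 343 and 625 counts (-0.52 ± 0.20), and the interval that holds RPS27, RAB13 and others had 130, 191, 431 and 750 counts (-0.55 ± 0.18). The 4 had unadjusted edgeR p-values of 0.000647 to 0.0218, and none passed the adjustment. Together they took 1.498% ± 0.044 of the counts in construct and 2.145% ± 0.286 in control cells (SD, n = 2). Both control libraries (1.943% and 2.347%) were above both construct libraries (1.467% and 1.529%).

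Ribosomal protein pseudogenes were grouped after their values were seen, so they carry no test. Of 30 intervals at 26 such genes, 25 were kept, 16 with both construct libraries below control (22.2% of all features) and 1 with both above (20.2% of all). Only 8 of the 25 overlap exons of no other gene, and most of the others are led by a protein-coding gene. The interval that holds RPS27 is also in the ribosomal protein list, and TIMM17A/RPL10P4 is also in the mitochondrial list. Their median log2 fold change was -0.36, and 20 of the 25 had a lower construct mean. The median was -0.567 without construct III, -0.243 without control II and -0.258 with library size alone. RPL19P3 had 20246 and 21955 CPM in construct and 25040 and 29098 CPM in control cells (-0.36 ± 0.13), and a second interval there gave -0.76 ± 0.33. RPL29P6 had 10733 and 11404 CPM in construct and 14258 and 18161 CPM in control cells (-0.55 ± 0.15). RPL10P4/RNPEP had 16699 and 16704 CPM in construct and 21373 and 23422 CPM in control cells (-0.42 ± 0.12). RPLP0P5 gave -0.59 ± 0.17, while AURKAP1/RAB3GAP2/XRCC6P3/RPLP0P5, a mixed interval, was above control at 0.20 ± 0.14. These copies resemble their parents, most of which lie on other chromosomes, so reads of a parent and of its copy cannot be told apart here.

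Of all 58 kept intervals led by processed pseudogenes, 26 lay below and 7 above control (22.2% and 20.2% of all features), with a median log2 fold change of -0.18. Without control II that median was -0.0989, without control I -0.289, and with library size alone -0.0801. Of the 107 intervals in introns, 12 lay below and 29 above control, beside the same shares of all features, with a median of 0.23. The intronic median changed sign between alternatives, from -0.0171 to 0.333.

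Translation factors and tRNA synthetases, which charge tRNA with amino acids, had values around 0. Of 19 kept intervals, 0 lay below and 5 above control (22.2% and 20.2% of all features), with a median log2 fold change of 0.08 that ranged from -0.118 to 0.189 over the alternatives. YARS1, the tyrosyl-tRNA synthetase, had 119, 149, 261 and 376 counts (0.08 ± 0.19). SARS1, the seryl-tRNA synthetase, had 228, 364, 609 and 938 counts (-0.08 ± 0.16). PABPC4, a poly(A)-binding protein, shared an interval of 285, 421, 662 and 1007 counts (0.07 ± 0.15). For these last 3 the groups overlapped. EIF4G3, a scaffold of cap-dependent initiation, had 7 sparse intervals with log2 fold changes from -0.75 to 1.12, of which the one most above control held 16, 8, 14 and 14 counts.

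Genes of mitochondrial respiration and the mitochondrial ribosome had mostly lower construct means. Of 13 kept intervals, 8 lay below and 0 above control (22.2% and 20.2% of all features), with a median log2 fold change of -0.28. It ran from -0.472 to -0.16 over the alternatives, with -0.16 without control II. CCNL2/MRPL20, which is also in the cell cycle list, had 31, 31, 109 and 321 counts (-1.39 ± 0.36). An interval that ANKRD65 leads and MRPL20 shares had 112, 206, 365 and 584 counts (-0.28 ± 0.20). MRPL9, in an interval with OAZ3, had 41, 62, 148 and 336 counts (-0.88 ± 0.28). MRPS21/PRPF3 had 15, 31, 71 and 176 counts (-1.08 ± 0.38). SDHB, of complex II of the respiratory chain, had 45, 79, 107 and 162 counts (0.18 ± 0.27). For SDHB the groups overlapped, and MRPL24/HDGF lay near 0 with 74, 81, 151 and 272 counts (-0.09 ± 0.25).

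Of 32 kept intervals at splicing and RNA-binding proteins, 5 lay below and 7 above control, shares near the 22.2% and 20.2% of all features, with a median log2 fold change of -0.03 (0.111 without control II). SRSF10, a splicing factor of the SR family, had 93, 167, 181 and 203 counts (0.70 ± 0.23). TARDBP, the RNA-binding protein TDP-43, shared an interval with MASP2 that had 102, 127, 185 and 219 counts (0.49 ± 0.22). SRSF10 and TARDBP were above control in both construct libraries. SMG5, of nonsense-mediated decay, shared an interval with PMF1 that had 92, 147, 312 and 500 counts (-0.45 ± 0.20). Of 2 sparse intervals at SMG5 alone, 1 was above control (0.81 ± 0.64) and the other overlapped (-0.35 ± 0.58). SF3A3, a subunit of the U2 snRNP, had 183, 314, 469 and 642 counts (0.13 ± 0.17), with overlap between groups.

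Chaperones were mixed over 7 kept intervals. PFDN2, a subunit of the prefoldin that hands actin and tubulin to chaperonin, had 152, 166, 433 and 760 counts (-0.55 ± 0.19). HSPA6, a stress-inducible HSP70, had 41, 34, 145 and 200 counts (-0.85 ± 0.30). Both were below control in both construct libraries, while the 3 intervals of DNAJC11, a mitochondrial protein, were above it by 0.22 to 0.32. Of the proteasome's 4 intervals 3 lay below control (22.2% of all features), and PSMA5/AMIGO1 lay above it with 6, 5, 4 and 10 counts (0.99 ± 0.69). PSMD4 in an interval of its own had 173, 265, 521 and 1035 counts (-0.49 ± 0.19).

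Stress response genes were few. ATF3, a stress-induced transcription factor, had 221, 297, 785 and 1052 counts (-0.51 ± 0.15, edgeR adjusted p = 0.195). SESN2, a leucine sensor upstream of mTORC1 that stress induces, had 49, 21, 193 and 243 counts (-1.26 ± 0.39). Both lay below control in both construct libraries, and a sparser SESN2 interval overlapped. MCL1, a survival factor of the BCL2 family, had 33, 44, 68 and 95 counts (0.23 ± 0.31) and lay above control in both construct libraries. PHGDH, of serine synthesis and a target of ATF4, had 13, 11, 26 and 37 counts (-0.05 ± 0.48). The list of 9 had 2 below and 4 above control (22.2% and 20.2% of all features). Its log2 fold changes ran from -1.26 to 1.28, with a median of -0.02. That median was 0.258 without construct III and 0.244 without control II. CCN1, an immediate early matrix protein, shared an interval with DDAH1 that had 12, 6, 49 and 87 counts (-1.53 ± 0.48).

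Cell cycle genes, read over 21 intervals, had 5 below and 3 above control (22.2% and 20.2% of all features) with a median of 0.18. The median was -0.0196 without construct II and 0.0158 without control II. RBBP4, a histone-binding subunit of chromatin complexes, had 5 intervals at 0.18 to 0.50, of which the largest held 288, 345, 660 and 717 counts. ORC1, of the origin recognition complex, had 104, 151, 260 and 348 counts (0.05 ± 0.20), and the groups overlapped. Among genes of the actin cytoskeleton, vesicle traffic and membranes, 6 of 22 intervals lay below and 0 above control, beside 22.2% and 20.2% of all features. CAPZB/MICOS10, at a capping protein of actin filaments, had 6, 4, 27 and 28 counts (-1.13 ± 0.60), with both construct libraries below. TMCO1, a channel of the endoplasmic reticulum, had 181, 320, 512 and 744 counts (-0.03 ± 0.17). The median of the list was -0.09, and it ran from -0.443 (without construct II) to 0.0185 over the alternatives.

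Glycolysis had 9 kept intervals with a median of 0.26, among them the 3 at PKLR given above. That median was -0.0159 without construct II, -0.00895 without construct III and 0.0701 without control II. SLC2A1, the main glucose transporter of growing cells, had 51, 43, 79 and 104 counts (0.39 ± 0.32). Sterol and isoprenoid synthesis had 8, with RUSC1/FDPS the lowest and a second SOAT1 interval the highest (0.62 ± 0.37). The 6 interferon response intervals had few counts and a median of -0.50 (-0.222 without control I and -0.0617 with limma-voom), with 0 at an unadjusted p under 0.05. Among them IFI6 had 5, 4, 22 and 21 counts (-0.94 ± 0.63), with both construct libraries below. The 3 histone intervals had a median of -0.002. H2BC18 had 19, 28, 72 and 133 counts (-0.79 ± 0.34), with both construct libraries below control. H2BC21, the most counted of the 3, had 77, 95, 222 and 195 counts (-0.002 ± 0.26). H3-3A had 19, 16, 27 and 44 counts (0.33 ± 0.44). For H2BC21 and H3-3A the groups overlapped.

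**Figure D4:**
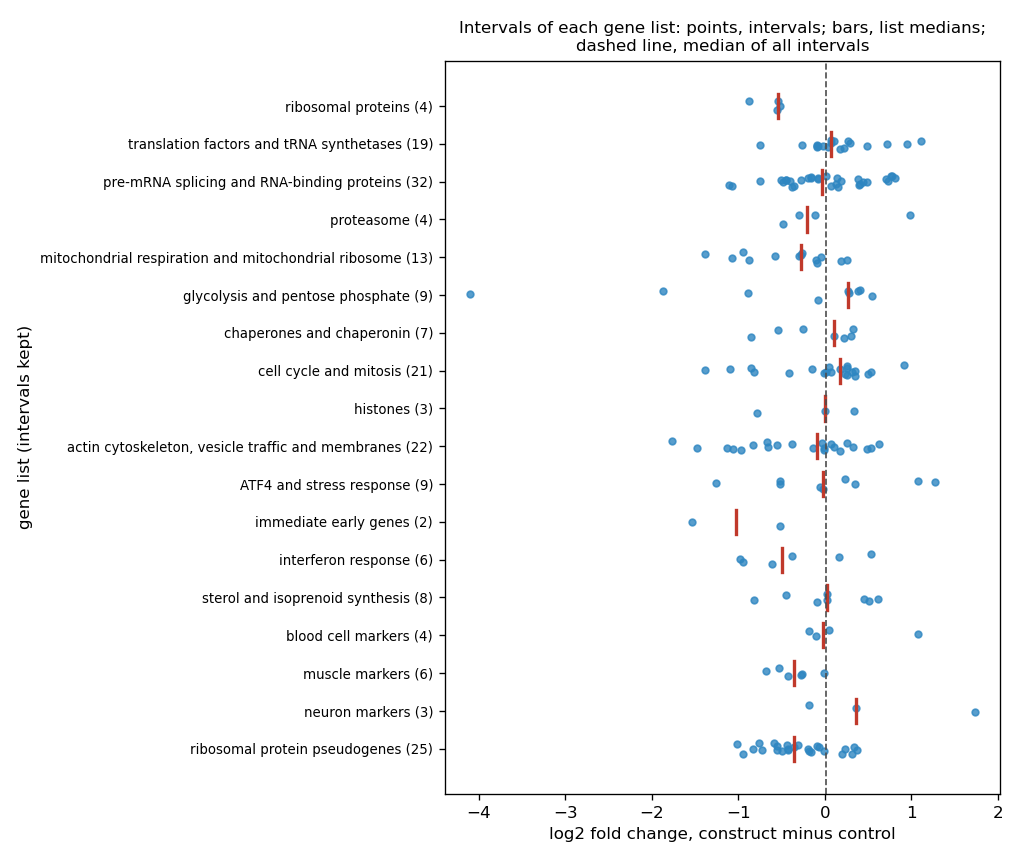
Log2 fold changes of construct minus control cells for the kept intervals of each gene list (points), with the list's median (red bar) and the median of all 944 features (dashed line). The medians of ribosomal proteins (-0.54), ribosomal protein pseudogenes (-0.36) and mitochondrial genes (-0.28) lie left of the line. So do those of immediate early genes (-1.02, 2 intervals), interferon response (-0.50), muscle markers (-0.355) and the proteasome (-0.21). The medians of cell cycle (0.18), glycolysis (0.26) and neuron markers (0.355) lie right of it. Those of the other lists, translation factors (0.08) among them, lie nearer to the line.

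Markers of cells that the culture should lack were read beside these lists. Of 15 blood cell markers, 7 had a counted interval and 4 intervals were kept. Their summed level was 1542 to 1717 CPM in construct and 1332 to 1432 CPM in control cells. PTPRC had 26, 32, 59 and 108 counts, and TAL1, in an interval with STIL, had 28, 37, 45 and 28 counts (1.08 ± 0.42). Epidermis markers came to 13.18 to 45.19 CPM in all, with 0 kept. Muscle markers came to 9920 to 11600 CPM in construct and 14200 to 14490 CPM in control cells, most of it in the shared intervals of RYR2 and ACTA1. Neuron markers, with 3 intervals kept, came to 672.8 to 836.1 CPM in construct and 665.9 to 698.8 CPM in control cells. Liver markers, with 1 kept, came to 114.9 to 564.9 CPM in construct and 85.7 to 346.6 CPM in control cells. The part of these markers in the results was not tested.

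Among 60 genes with more than 1 interval of their own, the intervals had the same sign in 36. Only MPZL1, RPL11 and RPL19P3 had every interval at an unadjusted p under 0.05 by edgeR, all of them lower in construct cells.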

How the data were processed

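The deposited table holds read counts as whole numbers, 1 row for each gene identifier. Counting by the authors used featureCounts 1.6.4 on single reads with GENCODE 19 and strand setting 2, leaving out multi-mapping reads, per the file headers. Alignment was by STAR to hg19, per the submitters' processing notes, with no version stated. Per the labels' protocols, libraries were made with SMART-Seq2 and Nextera, which do not mark strand, so antisense pairs are not resolved, and reads of the orientation not counted were lost. The R1 and R2 columns of each library, which no label explains, were summed.

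All counts lay on chromosome 1. Features with at least 20 counts over the 4 lysate libraries were kept. Intervals were named by comparing their numbers with GRCh38 exons, which GENCODE 44 records beside its lifted coordinates (98.03% of chromosome 1 exons have them); 108 unnamed pseudogenes took RefSeq symbols. Construct and control cells were compared with edgeR 4.0.16 (glmQLFit and glmQLFTest, TMM factors of 0.929756 to 1.03884, Benjamini-Hochberg over 944 features, threshold 0.05; common biological coefficient of variation 0.2121, 2 residual and 11.73 prior degrees of freedom). Alternatives used DESeq2 1.42.0, limma 3.58.1, other scalings and filters, thinned counts, and fits without each library. The scripts were tested on simulated data. Count ratios carry 95% exact intervals.

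Named were, as no feature passed, the 10 smallest p, the 25 intervals of highest mean CPM, and kept members of 21 gene lists (293 genes). The members and lists were chosen with earlier results of these data known. Results for some members of the lists are not reported here.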

Additional observations from a re-analysis of the deposited data

How the results depend on the processing

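No paired analysis was possible because the groups compared share fewer than 2 replicate numbers. The calls depended on the setting. With 0 higher and 0 lower in the reported fit, higher against lower calls were 1 and 5 with library size alone (median of all features 0.12), 0 and 1 with DESeq2 size factors, 0 and 34 with no filter beyond 1 count (3252 features), 0 and 3 with counts thinned to the smallest total, and 0 and 1 with DESeq2. Upper-quartile factors, the filters at 50 counts, by filterByExpr and by mean CPM, all 8 libraries in 1 model, R1 alone, R2 alone, limma-voom and summed intervals called 0 in either direction, with 8 to 110 features at an unadjusted p under 0.05. Leaving out a library gave 0 to 12 higher calls and 1 to 43 lower calls, most without control I and fewest without control II; 1 group is then a lone library, assumed to vary like the others, and the fitted spread follows the trend alone, as it does with no filter. MPZL1 passed in 8 of 18 alternatives and was lower in all 18; HCN3/PKLR passed in 2. The difference in the share of the 25 most abundant intervals ran from -3.32 to -1.41 percentage points without each library, and in the share at ribosomal protein positions from -0.849 to -0.445.

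Of 3197 values of 183 named intervals over 18 alternatives, 2866 kept their sign and their side of the threshold, 88 kept their sign and passed it, 236 changed sign from a value within 1 SE of 0, and 7 changed sign from a larger one. These 7 log2 fold changes were -0.0232 for EIF3I/CCDC28B with no filter, -0.0133 for an RBBP4 interval with no filter, 0.0331 for COPA with intervals summed, and 4 values without a library. Over the fits without each library, EIF3I ran from -0.0219 to 0.344, NPL/DHX9 from -0.10 to 1.06, MIGA1/FUBP1 from -1.11 to 0.0092, and KHDRBS1 from -1.85 to 0.83. The cause of these changes was not tested. Construct cells had under 3 counts in several sparse intervals, where a fold depends on the prior count.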
